A study of Mus musculus with 3 samples.

Results

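Cytokine signals of the gp130 family reach the nucleus of the cardiomyocyte through Janus kinases and STAT transcription factors, and 9 genes of these families were followed here. The 4 kinase genes Jak1, Jak2, Jak3 and Tyk2 and the 5 transcription factor genes Stat2, Stat3, Stat5a, Stat5b and Stat6 were chosen by gene symbol from the 56748 genes of the count table, and all 9 had counts in every library. Adult cardiomyocytes (ACMs) were isolated from the hearts of wild-type (WT) mice 8 to 10 weeks of age, cultured in serum-free medium and treated for 16 h with vehicle (0.1% BSA), with 10 ng/mL of human IL-6 or with 10 ng/mL of mouse OSM (oncostatin-M). The medium of all 3 conditions held 0.1% BSA, the contraction inhibitor BDM, insulin-transferrin-selenium and lipids. RNA samples were pooled, poly-A RNA was sequenced as paired reads, and each condition is 1 library, so the ratios below compare libraries and have no replicate check. The IL-6 arm is known from the sample labels only.

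A cytokine that binds its receptor brings together Janus kinases held on the receptor tails, the kinases phosphorylate each other and the receptor, and STAT proteins dock there, become phosphorylated, pair up and enter the nucleus. JAK1, JAK2 and TYK2 are found in most cells, whereas JAK3 works with the common gamma chain of lymphocyte cytokine receptors. STAT3 is the main STAT of the gp130 receptors that bind IL-6 and OSM, STAT5A and STAT5B serve growth hormone and prolactin among others, STAT6 serves IL-4 and IL-13, and STAT2 joins IRF9 in the response to type I interferon. In the heart, gp130 and STAT3 are known for their part in cardiomyocyte survival and growth under stress. These data measure transcripts, not protein or phosphorylation.

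The libraries held 24939980 (vehicle), 26362446 (IL-6) and 30773001 (OSM) counts. At low values the counts were mostly even: of the genes with 1 to 20 counts, 62.1% (vehicle), 61.4% (IL-6) and 63.5% (OSM) had an even count, and in the OSM library 1229 genes had a count of 2 but 666 a count of 1. Counts may therefore not be independent of each other, the counting options for paired reads are not known here, and the 95% counting intervals behind each call and each level order below were also computed from halved counts. Cardiomyocyte markers were abundant, with a summed 33543 (vehicle), 34404 (IL-6) and 38499 (OSM) CPM (counts scaled to a common library total) over 10 genes. The markers within this sum did not move alike. Ryr2 had 22606, 23555 and 9264 counts and Ttn 18901, 20398 and 7191, both lower with OSM. Tnni3 had 65637, 73009 and 124455 counts and Myl2 112878, 123253 and 204910, both higher with OSM. The sums were between 5.73 and 45.0 CPM for endothelial, fibroblast and mural cell lists in every library, and 24.1 (vehicle), 24.8 (IL-6) and 55.1 CPM (OSM) for 12 macrophage markers, of which Ptprc, Fcgr1, C1qa and C1qb were at 0 in all 3 libraries. Within that sum Cd68 had 382 (vehicle), 448 (IL-6) and 1419 (OSM) counts, Csf1r 187, 166 and 209, and Lyz2 13, 4 and 31. Each of the other macrophage markers had 22 counts or fewer in any library. The part of other cells in the ratios was not tested. In the OSM library, long genes were lower and short genes higher: across 9445 well-counted protein-coding genes the Spearman correlation of the log2 ratio of OSM to vehicle with gene length was -0.52, against -0.07 across 9361 genes for IL-6 to vehicle and -0.51 across 9485 genes for OSM to IL-6. Genes are not independent replicates, and the part of length in the ratios of the 9 genes was not tested, so the ratios of the 9 genes in both comparisons of OSM are also given relative to a smoothed trend at their gene length.

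Stat5b, Stat5a and Stat3 are neighbours within 158810 bases of chromosome 11 (GRCm39). Stat5b (chr11:100671557-100741550, minus strand) and Stat5a (chr11:100750177-100775995, plus strand) point away from each other across a gap of 8626 bases. Stat5a and Stat3 (chr11:100775924-100830366, minus strand) run into each other and share their last 72 bases, which are untranslated exon in 8 of 12 Stat5a and 13 of 34 Stat3 transcripts of GENCODE M39. That is 1.01% of the Stat5a and 0.756% of the Stat3 gene length. Stat6 (chr10:127478855-127496826) and Stat2 (chr10:128106428-128128718), both on the plus strand, lie 609601 bases apart on chromosome 10. The 4 kinases are on separate chromosomes, with Jak1 at chr4:101009564-101122479 (minus strand), Jak2 at chr19:29229228-29290480 (plus strand), Jak3 at chr8:72128940-72143219 (plus strand) and Tyk2 at chr9:21015364-21042539 (minus strand). Stat6 shares 40 bases with Nab2 on the opposite strand (182, 181 and 317 counts with vehicle, IL-6 and OSM), and Jak1 shares 4 bases with Raver2 (86, 112 and 92 counts). The opposite-strand gene 1700084C06Rik overlaps Tyk2 by 24326 bases and had 0 counts in all libraries. Whether the counting used the strand is not given in the sources used here, so reads of overlapping stretches are uncertain.

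Stat5a and Stat5b are the one pair of the 9 genes whose sequence is close enough to matter for read counting, and their shared stretch is shown for that reason. Their coding sequences were 90.7% identical, whereas the other STAT pairs were 59.0% to 65.5% identical and the kinase pairs 59.2% to 64.4%. Coding bases 571 to 894, in exons 7 to 9 of Stat5a (chr11:100764849-100765809) and exons 6 to 8 of Stat5b (chr11:100688567-100689527), are the same in both genes without a single difference, a run of 324 bases. The first 150 of these bases are printed on the first line, and the 60 coding bases that follow the run in each gene are on the next lines, with the 1 base that differs in capitals.
Stat5a and Stat5b, coding bases 571 to 720: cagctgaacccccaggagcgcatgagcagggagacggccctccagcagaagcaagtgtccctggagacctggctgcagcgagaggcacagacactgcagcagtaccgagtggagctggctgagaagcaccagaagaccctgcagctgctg
Stat5a, coding bases 895 to 954: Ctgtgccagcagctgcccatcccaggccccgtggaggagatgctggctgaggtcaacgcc
Stat5b, coding bases 895 to 954: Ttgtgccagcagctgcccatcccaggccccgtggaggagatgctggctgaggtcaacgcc
Of all windows of 75 bases in the main transcript, 9.96% of those of Stat5a and 7.71% of those of Stat5b were found unchanged in the other gene. The study sequenced paired reads of 150 bases, longer than these windows. Such a read or its mate can therefore still reach a differing base, and the shares are not shares of reads. Read pairs that lie wholly within identical sequence cannot be assigned by sequence. How the counting treated them is not given in the sources used here. Of the remaining genes, Jak1, Jak2, Tyk2, Stat2, Stat3 and Stat6 had 0 windows found in another gene. Jak3 had 7.69%, all shared with Insl3, a same-strand neighbour that overlaps it by 1362 bases. Insl3 had 4 (vehicle), 0 (IL-6) and 6 (OSM) counts.

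Promoters were searched because STAT3 is known to bind its own gene, and those shown are the promoters of the most abundant STAT gene, of the one promoter with a STAT-type match and of the kinase with the largest ratio. The RefSeq promoter table (GRCm38.p6, 250 bases before to 50 after each start) matched all 9 genes with 11 promoters, and each of the 11 was found exactly 1 time in GRCm39. The STAT element TTCNNNGAA, which reads the same on both strands, was in 0 of the 11 promoters and in 8.30% of all 32851 in the table. The form with a spacer of 4 bases, TTC and GAA around any 4 bases, was in 1 of 11, that of Stat2, and in 6.95% of all. The GC box GGGCGG, on either strand, was in 8 of 11 and in 35.7% of all, the CCAAT box on either strand in 4 of 11 and 37.4%, and TATAAA on either strand in 0 of 11 and 13.6%. A match is a description of the letters and not a binding site. The bases upstream of any exon of a protein-coding transcript follow, 5′ to 3′ along the gene's strand, with the matches to these motifs in capitals.
Stat3 promoter, chr11:100830428-100830616 (GRCm39, minus strand): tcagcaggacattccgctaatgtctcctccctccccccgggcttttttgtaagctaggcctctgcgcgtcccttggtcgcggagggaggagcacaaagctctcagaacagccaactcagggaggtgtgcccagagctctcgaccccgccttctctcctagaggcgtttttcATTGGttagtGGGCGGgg
Stat2 promoter, chr10:128106117-128106351 (GRCm39, plus strand): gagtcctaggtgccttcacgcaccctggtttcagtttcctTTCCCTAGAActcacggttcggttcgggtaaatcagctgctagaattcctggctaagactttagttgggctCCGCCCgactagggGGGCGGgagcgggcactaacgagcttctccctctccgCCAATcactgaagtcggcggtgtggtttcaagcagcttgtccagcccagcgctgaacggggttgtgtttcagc
Tyk2 promoter, chr9:21042690-21042821 (GRCm39, minus strand): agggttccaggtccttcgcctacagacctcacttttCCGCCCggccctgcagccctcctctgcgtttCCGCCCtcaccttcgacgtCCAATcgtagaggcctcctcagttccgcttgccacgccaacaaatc
In Stat3 a CCAAT box on the opposite strand, 79 bases before the start, was followed by a GC box at 69 bases. The match with the spacer of 4 bases in Stat2 began 210 bases before the start.

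Jak1 was the most abundant of the kinase transcripts in ACMs at 27.2 (vehicle), 25.6 (IL-6) and 20.8 (OSM) FPKM, which is a level per length. It was followed by Jak2, the kinase of single-chain hormone receptors such as those of growth hormone and erythropoietin, at 8.37 (vehicle), 8.53 (IL-6) and 8.07 (OSM) FPKM. Tyk2, a kinase of interferon and IL-12 type receptors that also binds gp130, was at 4.82, 4.91 and 2.54 FPKM in the same order of libraries. Jak3 was lowest at 1.23, 1.03 and 1.70 FPKM. The order of the 4 kinases was the same in every library, and none of the intervals of neighbouring genes overlapped. The sum over the 4 kinases was 41.6 (vehicle), 40.1 (IL-6) and 33.1 (OSM) FPKM, of which Jak1 made up 65.4%, 63.9% and 62.8%. The share of Tyk2 was 11.6% with vehicle, 12.3% with IL-6 and 7.67% with OSM, and that of Jak3 was 2.94%, 2.58% and 5.14%.

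**Figure D1:**
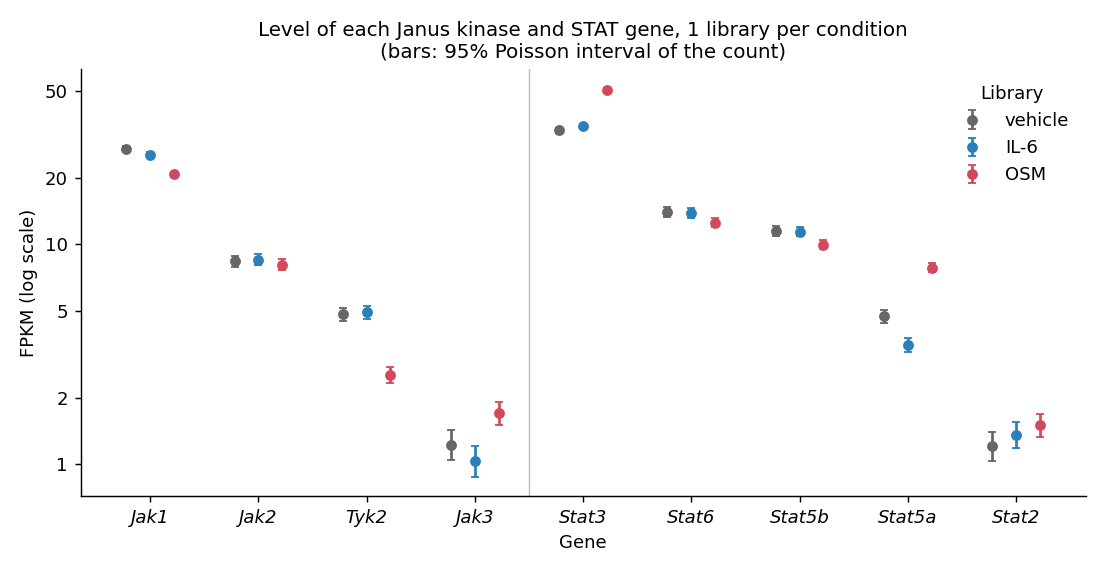
FPKM of each gene (vertical axis, log scale) in the vehicle, IL-6 and OSM libraries, 1 point per library, with bars for the 95% Poisson interval of the count. Jak1 and Stat3 head their families in all 3 libraries, and Stat3 in the OSM library is the highest value at 50.6 FPKM.

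Stat3 was the most abundant STAT transcript of the 5 at 33.0 (vehicle), 34.7 (IL-6) and 50.6 (OSM) FPKM, and it lay above 91.3%, 91.7% and 93.3% of the protein-coding genes with a count. Stat6 followed at 14.1, 13.9 and 12.5 FPKM, and Stat5b at 11.5, 11.4 and 9.99 FPKM. Stat5a was at 4.71 (vehicle), 3.49 (IL-6) and 7.83 (OSM) FPKM. Stat2, the STAT of the interferon response, was lowest at 1.21, 1.36 and 1.503 FPKM. This order was also the same in every library, no intervals of neighbours overlapped, and none of the 21 neighbouring pairs of both families overlapped with halved counts either. Stat3 made up 51.2% (vehicle), 53.5% (IL-6) and 61.4% (OSM) of the summed STAT level, which was 64.5, 64.8 and 82.5 FPKM. Gene counts do not separate the alpha and beta forms of STAT3, which differ in splicing.

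**Figure D2:**
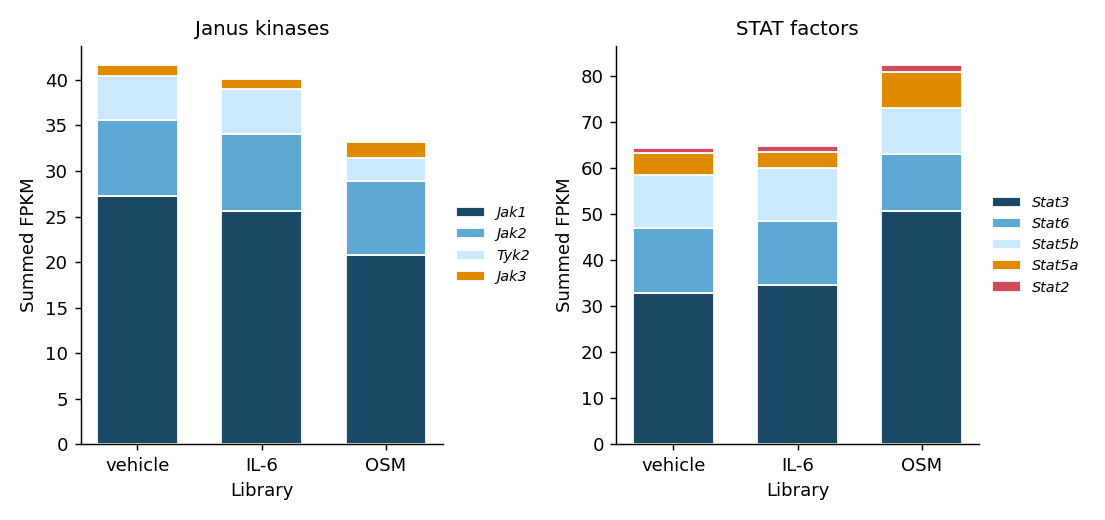
Summed FPKM (vertical axis) of the 4 Janus kinase genes, left, and the 5 STAT genes, right, in each library, with 1 bar segment per gene. The kinase sum was lowest with OSM at 33.1 FPKM and the STAT sum highest with OSM at 82.5 FPKM, where the Stat3 and Stat5a segments are larger.

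OSM against vehicle addresses the transcript response of ACMs to OSM, and in it Stat3 and Stat5a were higher, Tyk2 and Jak1 lower, and Jak2 within counting error. Stat3 had 7953 counts with vehicle, 8947 with IL-6 and 14412 with OSM. The OSM library stood apart from the other two, and its TMM-scaled count was 1.53-fold that of vehicle, a log2 ratio of 0.62 (95% counting interval 0.58 to 0.66). Stat5a had 850 (vehicle), 674 (IL-6) and 1668 (OSM) counts, highest with OSM and lowest with IL-6, with a log2 ratio of OSM to vehicle of 0.73 (0.61 to 0.85). Tyk2 had 837, 913 and 521 counts, so that vehicle and IL-6 were alike within 0.03 on the log2 scale and OSM was lower. Its log2 ratio of OSM to vehicle was -0.93 (-1.09 to -0.77), the largest in size of the 9 genes. Jak1 had 4978, 5009 and 4492 counts, and its log2 ratio of OSM to vehicle was -0.39 (-0.45 to -0.33).

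The other genes differed less or rested on fewer counts. Jak3 had 166 (vehicle), 150 (IL-6) and 272 (OSM) counts, with a log2 ratio of OSM to vehicle of 0.47 (0.19 to 0.76). Markers of lymphocytes, in which JAK3 is best known, summed to 0.2005, 0.493 and 0.422 CPM, with 6 of 12 markers at 0 in all libraries, and Il2rg, the receptor chain that binds JAK3, had 0, 1 and 4 counts. Stat2 had 181, 218 and 266 counts and a log2 ratio of 0.31 (0.04 to 0.59), which with halved counts was within counting error (-0.08 to 0.72). Stat5b had 1614, 1717 and 1652 counts and Stat6 had 1567, 1657 and 1649, with log2 ratios of OSM to vehicle of -0.21 (-0.31 to -0.11) and -0.17 (-0.27 to -0.07). Their raw counts were higher with OSM than with vehicle, and the ratios were below 0 after scaling to the deeper OSM library. Jak2 had 1065, 1163 and 1213 counts and a log2 ratio of -0.05 (-0.17 to 0.07). This interval covers 0 and does not show that the level was unchanged.

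None of the 9 genes had its whole interval beyond 2-fold in OSM against vehicle (0 higher and 0 lower), where 3.74% of the 15537 genes compared were higher and 5.43% lower by that rule. By the looser rule, an interval that excluded 0, 4 genes were higher (Stat5a, Stat3, Jak3 and Stat2) and 4 lower (Tyk2, Jak1, Stat5b and Stat6), beside 33.4% and 33.1% of all genes. The counts of the 9 genes were near these background shares. The median log2 ratio of the 9 genes was -0.05, and that of all genes compared was 0.00. When the intervals were widened by an assumed variation between cultures (biological coefficient of variation, BCV) of 0.1, 3 of the 8 remained beyond 0, and at 0.2 only 1, Tyk2. The share of all genes at these settings was not computed.

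**Figure D3:**
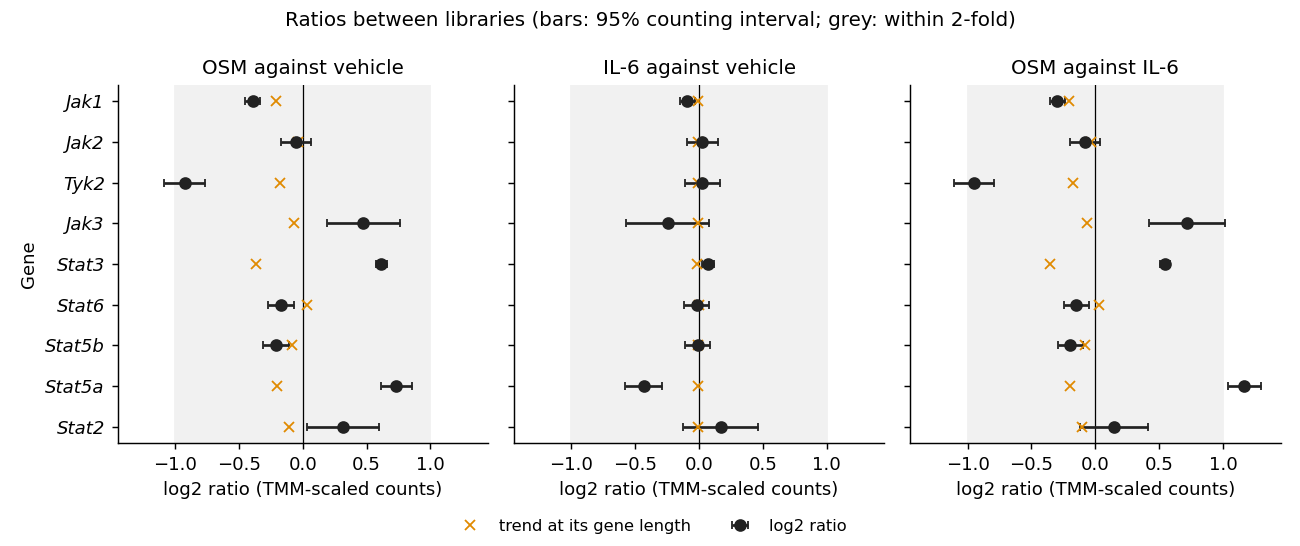
Log2 ratios of TMM-scaled counts (horizontal axis) of the 9 genes in the 3 comparisons, with bars for the 95% counting interval and grey for the range within 2-fold. Crosses mark the trend of well-counted protein-coding genes at the same gene length. Tyk2 lies lowest in both comparisons of OSM, Stat5a lies highest, and in IL-6 against vehicle Stat5a lies farthest from 0 at -0.43.

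Gene length moved with the OSM library, and the 9 genes were between 4402 (Stat6) and 9527 bases long (Stat3). Medians of all well-counted protein-coding genes ran from 0.47 in the shortest eighth to -0.56 in the longest eighth of gene lengths in OSM against vehicle. Stat3 is longer than 87.0% of the well-counted protein-coding genes, where the trend of OSM to vehicle was -0.37, so its log2 ratio relative to the trend was larger, at 0.98, than the ratio itself. Stat5a relative to the trend was at 0.93, Jak3 at 0.54 and Stat2 at 0.42. Tyk2 was at -0.75 and Jak1 at -0.18, both closer to 0 than their own ratios. Jak2 at -0.02 and Stat5b at -0.13 were also closer to 0, and Stat6 at -0.20 was farther from it. All 9 genes kept the sign of their ratio after the trend was removed. In IL-6 against vehicle the trend was between -0.03 and 0.04 over all lengths.

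**Figure D4:**
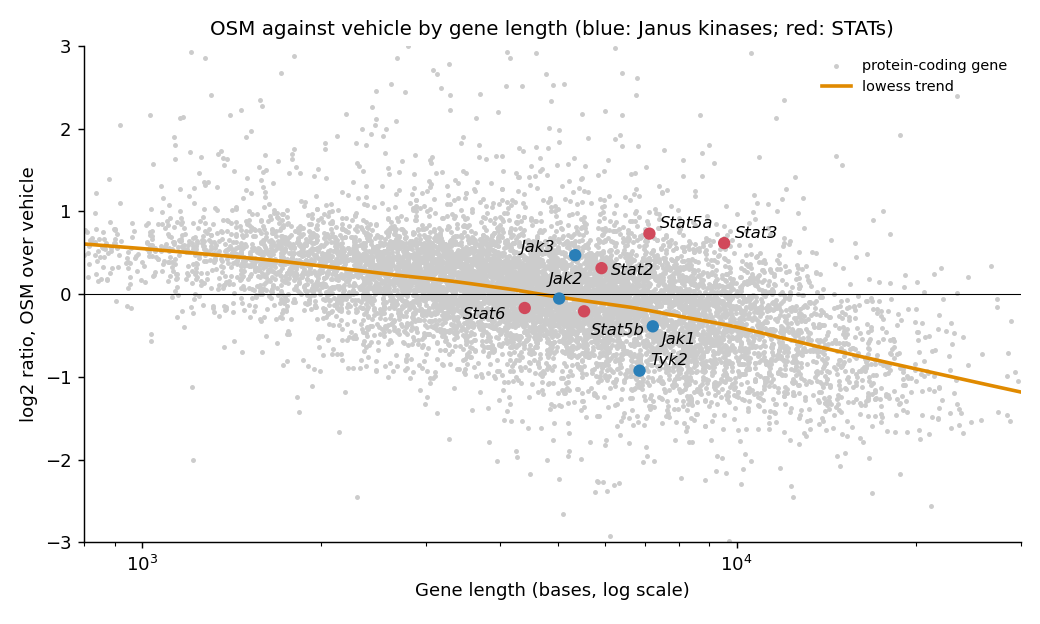
Log2 ratio of OSM to vehicle (vertical axis) against gene length in bases (horizontal axis, log scale), with grey points for well-counted protein-coding genes, a line for the lowess trend and coloured points for the 9 genes, and 135 of 9445 grey points outside the axes. Stat3 and Stat5a lie above the falling trend, Tyk2 below it, and Jak2 on it.

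IL-6 against vehicle addresses the same question for IL-6, and the 9 genes differed little apart from Stat5a. Stat5a was lower with IL-6, with a log2 ratio of -0.43 (-0.58 to -0.29), while Stat3 was at 0.07 (0.03 to 0.11) and Jak1 at -0.09 (-0.15 to -0.03). The intervals of the other 6 genes covered 0, from -0.25 (-0.57 to 0.08) for Jak3 to 0.17 (-0.12 to 0.46) for Stat2. No gene was beyond 2-fold (0 higher and 0 lower), against 1.77% higher and 1.74% lower of the 15472 genes compared. By the looser rule 1 was higher and 2 were lower, beside 19.6% and 19.1% of all genes. At an assumed BCV of 0.1 only Stat5a remained, and at 0.2 none (0 of 9), with the share of all genes not computed. Il6ra, the receptor subunit that binds IL-6, had 24 (vehicle), 8 (IL-6) and 14 (OSM) counts, or 0.110, 0.0342 and 0.0542 FPKM, whereas Il6st, which encodes gp130, had 17343, 19092 and 13870 counts.

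OSM against IL-6 compares the 2 cytokines at the same dose and time, and Stat5a differed most. Its log2 ratio was 1.17 (1.04 to 1.30), or 2.24-fold higher with OSM. It was the one gene of the 9 beyond 2-fold (1 higher and 0 lower), beside 4.24% higher and 5.42% lower of 15544 genes. With halved counts its interval was 0.98 to 1.35, no longer wholly beyond 2-fold. Jak3 was at 0.72 (0.42 to 1.01), Stat3 at 0.55 (0.51 to 0.58), Tyk2 at -0.95 (-1.11 to -0.79), Jak1 at -0.30 (-0.36 to -0.24), Stat5b at -0.20 and Stat6 at -0.15. Jak2 at -0.08 (-0.20 to 0.04) and Stat2 at 0.15 (-0.12 to 0.41) were within counting error. By the looser rule 3 were higher and 4 lower, beside 33.2% of all genes higher and 33.2% lower. Relative to the length trend of this comparison Stat5a was at 1.36, Stat3 at 0.90, Jak3 at 0.78, Stat2 at 0.25, Jak2 at -0.05, Jak1 at -0.09, Stat5b at -0.12, Stat6 at -0.18 and Tyk2 at -0.77. Stat3 was thus farther from 0, and Jak1 and Tyk2 were closer to 0, than without the trend. The OSM library enters both of its comparisons and the vehicle library enters both comparisons with vehicle, so these ratios are not independent of each other.

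Within each family the balance of transcripts differed between libraries, and a ratio of genes in 1 library does not depend on the scaling factor. The FPKM ratio of Stat5a to its paralog Stat5b was 0.409 with vehicle, 0.305 with IL-6 and 0.784 with OSM. The difference of their log2 ratios was 0.94 (0.78 to 1.09) in OSM against vehicle and -0.42 (-0.60 to -0.25) in IL-6 against vehicle. Stat5a was thus nearest to Stat5b with OSM. Of the windows of 75 bases, 9.96% in Stat5a and 7.71% in Stat5b were identical between these genes. Stat3 to Jak1 was 1.21 with vehicle, 1.36 with IL-6 and 2.43 with OSM, a difference of 1.01 (0.94 to 1.08) on the log2 scale in OSM against vehicle. Stat3 to Stat5a was 7.01, 9.94 and 6.47, and between OSM and vehicle it differed by -0.11 (-0.24 to 0.01), within counting error. Jak2 to Tyk2 was 1.74, 1.74 and 3.18, a difference of 0.87 (0.67 to 1.07), and Jak1 to Tyk2 was 5.65, 5.21 and 8.19, a difference of 0.54 (0.37 to 0.70). Jak3 to Tyk2 was 0.254, 0.211 and 0.670, so that Jak3 remained below Tyk2 in every library.

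The receptors upstream of these kinases were described from a list of 27 subunits, of which 19 were compared in OSM against vehicle. Of these, 3 were beyond 2-fold higher (Osmr, Il4ra and Csf2rb) and 2 lower (Prlr and Il7r), beside 3.74% and 5.43% of all genes, with a median log2 ratio of -0.05. Osmr, the subunit that pairs with gp130 to bind OSM, had 1023 (vehicle), 1199 (IL-6) and 2929 (OSM) counts and a log2 ratio of OSM to vehicle of 1.28 (1.17 to 1.38). Il6st was lower with OSM at -0.56 (-0.60 to -0.53), and at -0.09 relative to its length trend. Lifr, the partner of gp130 in the LIF receptor, had 864, 805 and 729 counts and a log2 ratio of -0.49 (-0.63 to -0.34), or -0.03 relative to the trend. Il4ra, the IL-4 receptor chain that signals to STAT6, had 123, 212 and 677 counts (log2 ratio 2.22, 1.94 to 2.51). Prlr, the prolactin receptor that signals through JAK2 and STAT5, had 209, 221 and 28 counts (-3.14, -3.77 to -2.57). Csf2rb had 0, 1 and 19 counts and Il7r 12, 0 and 0, too few for more than a bound. With a floor of 3 counts in the library at 0, Csf2rb was at least 5.36-fold higher and Il7r at least 4.73-fold lower with OSM, which leaves out the counting error of the 19 and 12 counts. The 95% counting intervals reached as near to 0 as log2 ratios of 1.98 for Csf2rb and -1.72 for Il7r. With halved counts neither of these remained among the calls. In IL-6 against vehicle, 0 of 18 compared subunits were higher and 1 lower (Il7r), beside 1.77% and 1.74% of all genes. Of 5 gp130 family ligands compared in OSM against vehicle, Il6 alone was beyond 2-fold (1 higher and 0 lower, beside the same 3.74% and 5.43%), with 4 (vehicle), 0 (IL-6) and 42 (OSM) counts, and in IL-6 against vehicle 0 of 5 were.

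Negative regulators of the pathway were higher with OSM in 8 and lower in 4 of 17 genes compared by the looser rule, beside 33.4% and 33.1% of all genes. Beyond 2-fold 2 were higher and 0 lower, beside 3.74% and 5.43% of all genes, with a median log2 ratio of 0.46. Socs3, which blocks JAK activity at gp130 and is itself a STAT3 target, had 670 (vehicle), 646 (IL-6) and 18194 (OSM) counts, a log2 ratio of OSM to vehicle of 4.52 (4.41 to 4.63). Cish, a STAT5 target that acts on STAT5-activating receptors, had 151, 215 and 617 counts (1.79, 1.53 to 2.06). Socs1 had 4, 3 and 25 counts and was beyond 2-fold higher in OSM against IL-6, but not with halved counts. In IL-6 against vehicle, 0 of 15 negative regulators were beyond 2-fold, beside 1.77% of all genes higher and 1.74% lower. By the looser rule 5 were higher and 1 lower, beside 19.6% and 19.1% of all genes. Of 18 partners and cofactors of the STAT proteins, 0 were higher and 2 lower in OSM against vehicle, the coactivators Ep300 (2028, 2262 and 917 counts, log2 ratio -1.39) and Ncoa1 (1089, 1275 and 520 counts, -1.31), beside 3.74% of all genes higher and 5.43% lower, with a median of -0.17. Relative to the length trend Ep300 was at -0.72 and Ncoa1 at -1.001, and neither had its whole interval beyond 2-fold. Irf9, the partner of STAT2, had 147, 175 and 344 counts and a log2 ratio of OSM to vehicle of 0.99 (0.70 to 1.27).

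Targets were grouped by the STAT they are known for, and some are shared between lists. Of 22 STAT3 targets compared in OSM against vehicle, 12 were beyond 2-fold higher and 0 lower, beside the 3.74% of all genes higher, with a median log2 ratio of 1.42 (1.25 relative to the length trend). Timp1, an inhibitor of matrix metalloproteinases, had 203 (vehicle), 178 (IL-6) and 6739 (OSM) counts (log2 ratio 4.81), and Cebpd, a transcription factor of the acute phase response, had 61, 112 and 1288 (4.16). The others were Socs3, Lcn2, Bcl3, Il4ra, Junb, Fos, Bcl2l1, Cebpb, Osmr and Lbp, the last from 0, 2 and 16 counts. With halved counts Lbp was no longer beyond 2-fold. By the looser rule 16 of the 22 were higher and 5 lower, beside 33.4% and 33.1% of all genes, and the 5 lower were Fgl1 at -1.07, Ccnd1 at -1.06, Icam1 at -0.76, Il6st at -0.56 and Vegfa at -0.27. In IL-6 against vehicle, 0 of 20 STAT3 targets were beyond 2-fold, beside 1.77% of all genes higher and 1.74% lower, with a median of -0.04. By the looser rule 6 of these 20 were higher and 3 lower, beside 19.6% and 19.1% of all genes. In OSM against IL-6, 13 of 22 were higher and 0 lower, beside 4.24% and 5.42% of all genes. Among the 13, Hamp had 18 counts with OSM and 0 with IL-6 and was not beyond 2-fold with halved counts. This list was chosen with earlier results of these libraries known and is not independent evidence of its direction.

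Of 9 STAT5 targets compared, 2 were beyond 2-fold higher with OSM (Cish and Bcl2l1) and 0 lower, beside 3.74% and 5.43% of all genes, with a median log2 ratio of 0.04. Both of these also count among STAT3 targets or the regulators above. By the looser rule 3 of the 9 were higher and 3 lower, beside 33.4% and 33.1% of all genes. The third higher gene was Socs2 at 0.68. The 3 lower were Ccnd1 at -1.06, Ccnd2 at -1.03 and Igfals at -0.87. Relative to the length trend the median of the 9 was -0.18. Of 16 targets of the complex of STAT2 and IRF9, 0 were higher and 2 lower, Ifit1 with 94 (vehicle), 94 (IL-6) and 16 (OSM) counts and Ifit2 with 115, 99 and 28, beside 3.74% and 5.43% of all genes, and the median was -0.62. By the looser rule 4 of the 16 were higher and 5 lower, beside 33.4% and 33.1% of all genes. In IL-6 against vehicle 1 of 16 was higher, beside 1.77% of all genes, Isg15 with 2 counts with vehicle and 28 with IL-6, and with halved counts it was no longer beyond 2-fold. Of 12 STAT6 targets 3 had enough counts to be compared in OSM against vehicle. Il4ra was the one beyond 2-fold (1 higher and 0 lower), beside 3.74% and 5.43% of all genes. It is also counted in the receptor and STAT3 target lists above.

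**Figure D5:**
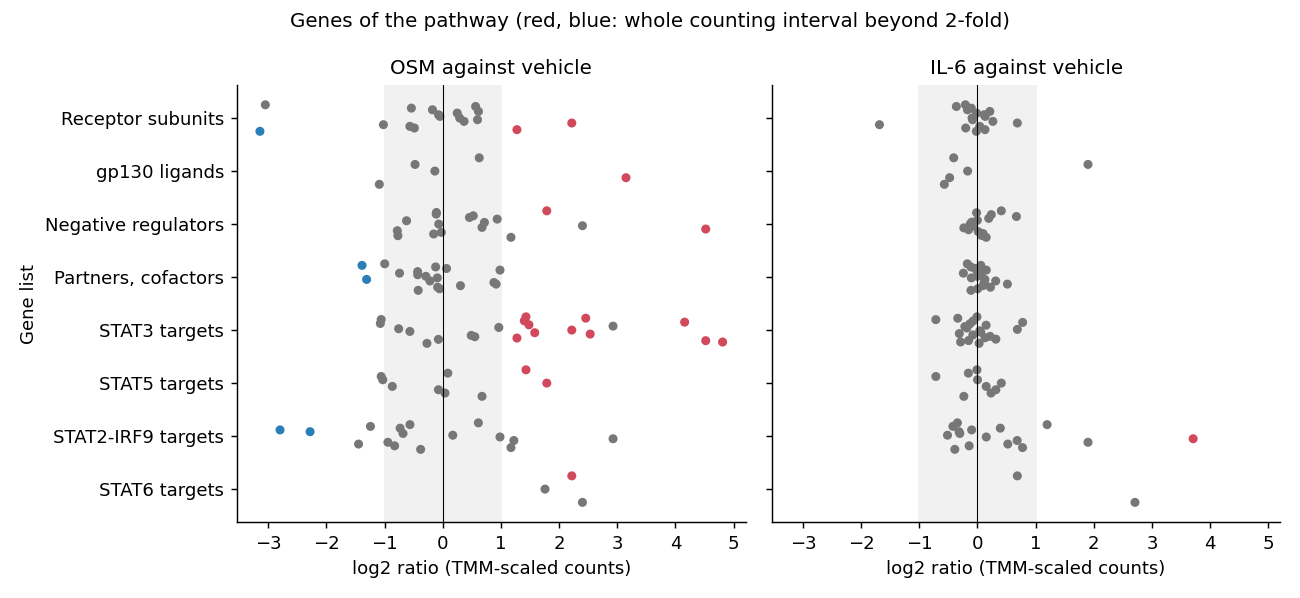
Log2 ratios of TMM-scaled counts (horizontal axis) of the genes in each pathway list for OSM against vehicle, left, and IL-6 against vehicle, right, with 1 point per gene, red or blue where the whole counting interval was beyond 2-fold higher or lower and grey otherwise, with the band of 2-fold shaded. Genes with 0 counts in one of the libraries compared are not drawn; the STAT3 targets hold the most red points, and the IL-6 panel has 1.

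Other genes shared the pattern of Stat3 and Jak1 over the 3 libraries without belonging to the pathway. Among the 9439 protein-coding genes whose mean count was 100 or more, the 5 nearest to Stat3 by Euclidean distance of centred log2 values were Ripk1, Ddx41, Txn2, Taf7 and Mrps16, at distances of 0.004 to 0.005. The nearest was Ripk1 with 149 (vehicle), 168 (IL-6) and 271 (OSM) counts. The 5 nearest to Jak1 were Me1, Lrrc58, Kansl3, Tti1 and Uhmk1, and Me1 had 8618, 8696 and 7788 counts. This likeness over 3 libraries is a description only.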

How the data were processed

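Per the methods of the study and the submitters' processing notes, paired reads were trimmed with fastp and mapped to GRCm39 with HISAT2 2.2.1. They were assigned to genes with featureCounts. The notes name version 2.0.6 of featureCounts and the methods of the study name another, so the sources differ on this step. The strand setting is not given in the sources used here. The authors deposited raw counts of reads per gene as whole numbers, together with FPKM values, which equal the count divided by gene length and 1 constant per library. Every value column matched a library (0 unmatched).

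TMM factors were computed for each pair of libraries with edgeR 4.0.16 in R 4.3.3, and a gene entered a comparison with 10 or more counts in the pair. Log2 ratios were taken of TMM-scaled counts, and their 95% intervals (Clopper-Pearson, conditional on the sum of both counts) cover counting error only. A gene was called where its whole interval lay beyond 2-fold, or, by the looser rule, beyond 0. With 1 pooled library per condition no test across replicates was possible and no P-value is given. The floor of 3 counts is 0.120 (vehicle), 0.114 (IL-6) and 0.0975 CPM (OSM). The length trend is a lowess curve with a fraction of 0.3. The calling rule was tested on simulated data.

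The 9 genes and the 8 pathway lists were chosen with earlier results of these data known. Genes were named by rule: the 9 genes, genes overlapping them, list members beyond 2-fold in any comparison (up to 6 a list by size, of which not every one is described), Osmr, Il6st, Lifr, Il6ra, Socs3, Cish and Irf9, and the 5 genes most like Stat3 and Jak1. The further STAT3 targets, Il2rg and the marker genes were added with their values in view. Alternatives were DESeq2 1.42.0 factors, totals, upper quartiles, FPKM with a pseudocount of 0.1, a prior count of 0.5, thinning to the shallowest library, no count minimum, removal of the length trend, other thresholds, an assumed BCV and, added after seeing the data, intervals from halved counts. Sequences are from GRCm39 with GENCODE M39 and from the RefSeq promoter table.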

Additional observations from a re-analysis of the deposited data

How the results depend on the processing

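No paired analysis was possible because each condition has 1 library and the labels give no replicate numbers. In OSM against vehicle, 0 genes were beyond 2-fold, and 2 were when the interval had only to pass 1.5-fold (Stat5a higher and Tyk2 lower). In the same comparison 8 genes were beyond counting error, 7 with halved counts, 3 at an assumed BCV of 0.1 and 1 at 0.2. Of all genes, 33.4% were higher and 33.1% lower beyond counting error, and 27.1% and 27.0% with halved counts. Shares of all genes at 1.5-fold or at an assumed BCV were not computed, so those counts have no background beside them. In IL-6 against vehicle these counts of the 9 genes were 3, 3, 1 and 0. There 19.6% of all genes were higher and 19.1% lower, and 10.6% and 10.3% with halved counts. In OSM against IL-6, the 1 gene beyond 2-fold, Stat5a, was lost with total counts, with halved counts and at either BCV (0 each), and 2 genes passed 1.5-fold (again Stat5a and Tyk2). In OSM against IL-6, 7 genes were beyond counting error (beside 33.2% of all genes higher and 33.2% lower), 4 at a BCV of 0.1 and 2 at 0.2. No log2 ratio of the 9 genes beyond counting error changed sign under any alternative run: 231 values stayed within the counting interval and 12 left it, 4 under total counts and 8 with the length trend removed. Scaling by another method moved all ratios by at most 0.08 on the log2 scale. The order of levels was the same as TPM (0 places differed). A BCV of 0.1 or 0.2 is assumed, since without replicates it cannot be estimated. Reads shared by overlapping genes, and by Stat5a and Stat5b, could not be separated from gene counts.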
